A study of Mus musculus with 4 samples.

Results

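A set of 8 potassium channel genes was followed in mouse liver cells whose labels say biliary epithelial: Kcnma1, Kcnip4, Kcnn4, Kcnq1, Kcnq3, Kcnk1, Kcnj15 and Kcnj16. They were taken by name from all 4 deposited count matrices and are 8 of the 50766 genes of the gene table, of which 31933 were seen at all. They were chosen by name with earlier results of these data known, so they are in effect selected on their levels and BDL-against-sham differences in these same cells. Their differences between groups are therefore given as description, with no p-value. The study compared livers 7 days after ligation of the bile duct (BDL, surgery that blocks the outflow of bile) with livers 7 days after sham surgery. The labels give the genotype Sox9EGFP for all 4 libraries, 2 labelled sham and 2 labelled BDL. Sox9 is a transcription factor of bile duct cells, and EGFP is a green fluorescent reporter. The labels state neither age nor sex, nor how the cells were isolated, so a reporter-based sort is not given in the sources used here. The titles give each library a number of its own. Where nothing says that libraries came from separate animals, the spread between them may be technical.

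Biliary epithelial cells (BECs) line the bile ducts and alter bile by moving chloride, bicarbonate and water. Potassium channels let potassium leave the cell, which holds the membrane potential negative and so keeps the electrical drive for chloride exit through channels such as Cftr and Ano1. Calcium-gated potassium channels open when calcium rises inside the cell, voltage-gated ones follow the membrane potential, two-pore channels carry leak currents, and inward rectifiers set the resting potential. Auxiliary subunits change the gating or surface number of the pores they bind.

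The libraries held 2863 to 4065 cells in 10024577 to 33809650 transcripts (unique molecular identifiers, UMIs). The median cell held 3260 and 2610 UMIs under the sham label and 7058 and 7793 under the BDL label, so depth moved with the label. A second group name stands in the deposited cell tables. It reads BDL for sham replicate 2 and sham for BDL replicate 2, against their labels, and matches the label for the other 2 libraries. Groups below follow the labels, and the BEC-like differences of the 5 abundant genes among the 8 are also given for the 2 matching libraries alone. Most other results were rerun with 1 library left out at a time, or are given per library. No cell barcode was shared between libraries. After filters 12180 cells remained, and 81.7% to 94.8% of each library were BEC-like: all 11 biliary markers of the list used, among them Krt19, Epcam and Sox9, were detected in the class as a whole, and 1 cluster of 30 cells met 10 of the 11, without Spp1. Each library also held 71 to 416 mesenchymal-like, 19 to 122 endothelial-like, 2 to 34 hepatocyte-like and 6 to 21 macrophage-like cells. Only BEC-like and mesenchymal-like cells were tested. Levels are in CPM, a gene's UMIs per 1000000 UMIs summed over the cells of a class in 1 library.

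The region just before a gene's annotated start is shown for 3 of the genes whose BEC-like levels went different ways (below): Kcnn4, Kcnk1 and Kcnip4. Each is the 250 bases upstream of a start in RefSeq (GRCm38.p6), 5′ to 3′ on the gene's strand, and none of these bases lay in an exon of GENCODE M21. The Kcnn4 window is chr7:24370013-24370262 (plus strand), the Kcnk1 window chr8:125994852-125995101 (plus strand) and the Kcnip4 window chr5:49285660-49285909 (minus strand). Capitals mark matches to the motifs searched.
Kcnn4: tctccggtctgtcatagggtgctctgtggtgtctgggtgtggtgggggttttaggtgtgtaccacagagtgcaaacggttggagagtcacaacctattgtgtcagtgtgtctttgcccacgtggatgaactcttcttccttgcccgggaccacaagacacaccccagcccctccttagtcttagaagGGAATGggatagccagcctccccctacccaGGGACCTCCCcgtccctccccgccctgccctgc
Kcnk1: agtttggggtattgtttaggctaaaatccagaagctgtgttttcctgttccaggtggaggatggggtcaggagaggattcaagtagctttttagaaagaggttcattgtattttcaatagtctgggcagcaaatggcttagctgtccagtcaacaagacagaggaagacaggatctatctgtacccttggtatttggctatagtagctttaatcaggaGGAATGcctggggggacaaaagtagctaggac
Kcnip4: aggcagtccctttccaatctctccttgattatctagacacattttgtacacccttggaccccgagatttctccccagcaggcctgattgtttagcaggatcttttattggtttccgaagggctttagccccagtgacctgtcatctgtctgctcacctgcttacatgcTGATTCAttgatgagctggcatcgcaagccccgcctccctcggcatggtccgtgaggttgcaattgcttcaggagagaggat
The motifs were searched on both strands and chosen after the values were seen: TATA box TATAAA, AP-1 TGANTCA, TEAD GGAATG, HNF1 core GTTAAT and NF-kB, the letters GGGA and CC with any 4 bases between them. No 2 of the matches shown overlap. The Kcnn4 window held a TEAD match beginning at -63 and an NF-kB match beginning at -33, counted from the start. The Kcnk1 window held a TEAD match at -32, and the Kcnip4 window an AP-1 match at -82. Among 32817 windows of the same length, 12.6% held the TEAD letters, 17.6% the NF-kB letters and 6.75% the AP-1 letters, so such matches are common. A match is a description of letters and no evidence of binding. RefSeq entries were matched for 6 of the 8 genes. The Kcnma1 window held 2 matches to the NF-kB letters, at -196 and -68, and a window before another Kcnip4 start held 2 that overlap, at -216 and -215. Those windows lay in exons and are not shown.

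In BEC-like cells, 1 of the 8 genes was higher in the BDL libraries, 3 were lower, 2 were tested and not called, and 2 were too low to test. Calls come from edgeR's quasi-likelihood test over all genes at an adjusted p of 0.05. It called 27.1% of the 16056 genes tested, 14.2% higher and 12.9% lower, and nothing is read from the counts for the 8 genes, since they were chosen with these differences known. Their own differences are given below as values with no test. The median log2 fold change was -0.03 over all genes tested. The call count over all genes, 4350, dropped to 1405 with sham replicate 1 left out and to 1476 with sham replicate 2 left out, and was 6587 without BDL replicate 1.

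**Figure D1:**
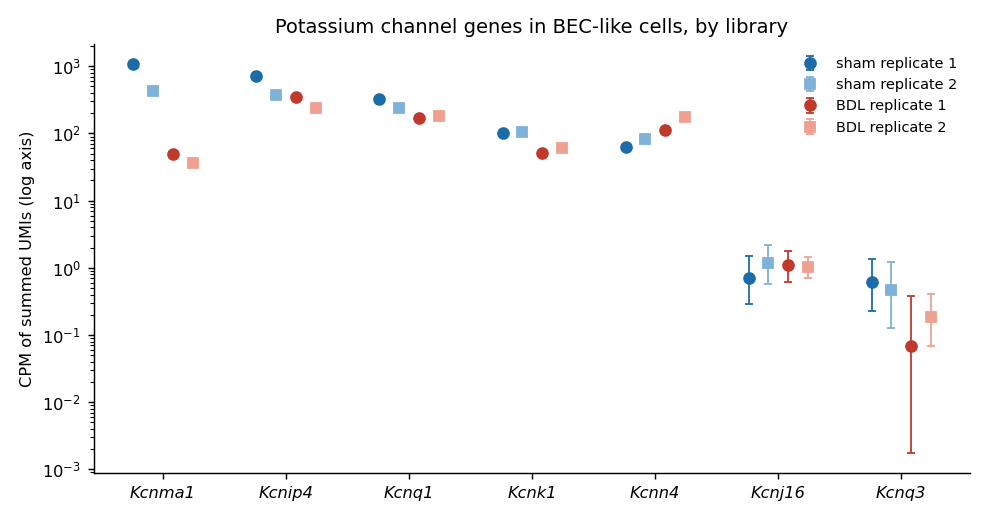
Level of 7 of the 8 genes in BEC-like cells, in CPM on a log axis, 1 point per library, with exact Poisson 95% intervals that cover counting error only. Kcnj15, at 0 UMIs in all 4 libraries, is not drawn; Kcnma1 stands at 1078 and 421.6 CPM in the sham libraries against 49.2 and 35.8 CPM in the BDL libraries.

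Kcnma1 encodes the pore of the BK channel, a large-conductance channel opened by calcium and by depolarization. Sham replicate 1 had 1078 CPM and sham replicate 2 had 421.6 CPM, while BDL replicate 1 had 49.2 CPM and BDL replicate 2 had 35.8 CPM. Both sham libraries lay far above both BDL libraries, and the sham libraries also differed from each other 2.56-fold. The log2 fold change was -4.10 (SE 0.41). It ranged from -4.56 to -3.36 over 23 alternatives. With only the 2 libraries whose cell table matches the label it was -4.46. Within each library the 8 sublibraries gave similar levels, 1026 to 1188 CPM for sham replicate 1 and 358.1 to 492.9 CPM for sham replicate 2, so the gap between the sham libraries was present in each sublibrary.

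Transcripts of some other cell types also moved with the label in BEC-like sums. The 11 hepatocyte markers summed to 1644 and 1685 CPM in the sham libraries and 349.2 and 368.9 CPM in the BDL libraries. The 5 mesothelial markers summed to 333 and 276 against 93.7 and 101.2 CPM, and the 12 mesenchymal markers to 109.5 and 110.4 against 21.3 and 35.2 CPM. In the sham libraries Kcnma1 itself was at 0 CPM (in 2 cells) and 63.5 CPM in hepatocyte-like cells and at 153.6 and 86.2 CPM in mesenchymal-like cells, in both classes below its level in BEC-like cells of the same library. The 6 neutrophil markers summed to 1.43 and 1.54 against 0.068 and 0.249 CPM, with Ly6g and Retnlg at 0. The part of such transcripts in the differences of the 8 genes was not tested.

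Kcnn4 encodes the intermediate-conductance calcium-gated channel, which in secretory epithelia holds the drive for chloride exit. Its level was 63.8 and 83.8 CPM in sham replicates 1 and 2, and 112.1 and 177.4 CPM in BDL replicates 1 and 2. The groups did not overlap, and the BDL libraries lay further apart from each other than the sham libraries did. The log2 fold change was 0.99 (SE 0.26). With 1 library left out it ran from 0.62 without BDL replicate 2 to 1.30 without sham replicate 2. In the matching pair alone it was 0.81. Thus the 2 calcium-gated genes went opposite ways.

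Kcnq1 encodes a voltage-gated pore that in epithelia pairs with the auxiliary subunit Kcne3. It had 325.3 and 237.8 CPM under the sham label and 168.5 and 180.7 CPM under the BDL label. The groups did not overlap, with a log2 fold change of -0.66 (SE 0.14), and of -0.49 without sham replicate 1. Kcnq1 shares its locus with the antisense transcript Kcnq1ot1, which stood at 405.1 and 402.1 against 360.3 and 292.2 CPM. Whether reads were counted by strand is not given in the sources used here, so reads of these 2 transcripts cannot be told apart with certainty.

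Kcnk1 encodes a two-pore leak channel. It had 101.9 and 106.7 CPM in the sham libraries, the closest pair of replicates among the 5 abundant genes, and 50.7 and 61.3 CPM in the BDL libraries. The groups did not overlap, and the log2 fold change was -0.88 (SE 0.14), and -0.75 without sham replicate 2. In the matching pair alone it was -1.01, against -0.95 for Kcnq1 and -1.03 for Kcnip4.

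Kcnip4 encodes a calcium-binding auxiliary subunit of Kv4 voltage-gated channels, best known from neurons. Sham replicates 1 and 2 had 708.6 and 368.1 CPM, BDL replicates 1 and 2 had 347.2 and 241.2 CPM. The groups did not overlap, but sham replicate 2 and BDL replicate 1 lay close together. The log2 fold change was -0.83 (SE 0.28). With 1 library left out it ran from -1.16 without sham replicate 2 to -0.37 without sham replicate 1.

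The inward rectifier genes were near 0. Kcnj16, whose product forms mixed channels with other rectifiers, had 7, 10, 16 and 33 UMIs in sham replicates 1 and 2 and BDL replicates 1 and 2, or 0.72 to 1.19 CPM. Its log2 fold change was 0.18 (SE 0.50), and -0.21 without sham replicate 1. Kcnj15 had 0 UMIs in BEC-like cells of every library, which by a limit of 3 counts allows up to 0.31 and 0.36 CPM in the sham libraries and up to 0.20 and 0.093 CPM in the BDL libraries. Kcnq3, a subunit of the neuronal M-current channel, had 6, 4, 1 and 6 UMIs and was not tested in this class.

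Per kilobase of exon (GENCODE M21 lengths), Kcnip4 was highest of the 8 genes, at 195.4 and 101.5 CPM per kb under the sham label and 95.7 and 66.5 under the BDL label. Kcnq1 followed at 79.5 and 58.1, against 41.2 and 44.2. In the sham libraries Kcnk1 (45.6 and 47.7) lay within the span of Kcnma1 (63.5 and 24.8), so that pair was not ordered, and Kcnn4 was lowest of the abundant genes at 12.5 and 16.4. In the BDL libraries Kcnn4 (21.9 and 34.7) and Kcnk1 (22.7 and 27.4) overlapped, and Kcnma1 was lowest of the 5 at 2.90 and 2.11. Whether reads from introns were counted is not given in the sources used here. Kcnip4 and Kcnma1 span 1135 and 725.1 kb with introns, so exon length may be the wrong measure for them.

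**Figure D2:**
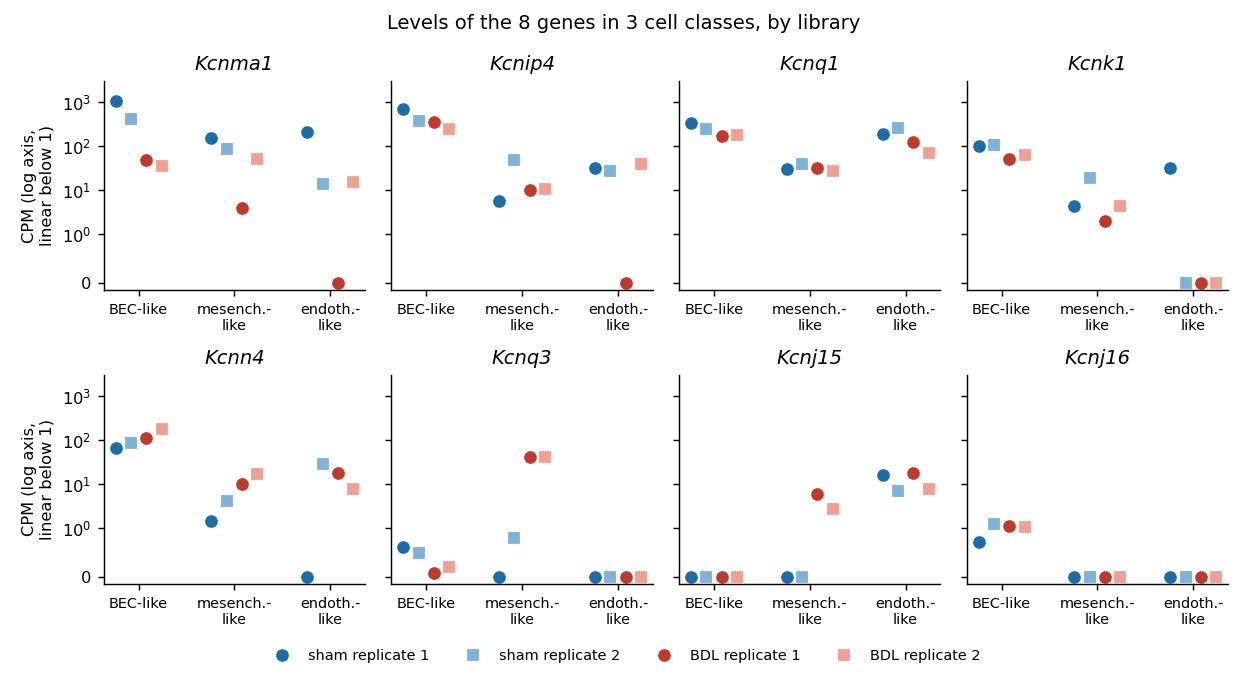
Levels of the 8 genes in BEC-like, mesenchymal-like and endothelial-like cells, in CPM (log axis, linear below 1), 1 point per library. Kcnma1, Kcnip4, Kcnk1 and Kcnn4 are higher in BEC-like cells than in either other class in each library, except for Kcnma1 and mesenchymal-like cells of BDL replicate 2; Kcnq3 stands out in mesenchymal-like cells of both BDL libraries.

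Across classes, 4 of the 5 abundant genes were mostly highest in BEC-like cells. Kcnip4 stood at 5.64 to 47.1 CPM in mesenchymal-like cells, and Kcnk1 at 1.95 to 18.4 CPM, both highest in sham replicate 2. Biliary transcripts were also present in this class: the 11 biliary markers summed to 532.7 and 1547 CPM in mesenchymal-like cells of sham replicates 1 and 2 and to 523.9 and 1398 CPM in those of BDL replicates 1 and 2, against 11580 to 12720 CPM in BEC-like cells. Their part in the mesenchymal-like levels of the 8 genes was not tested. Kcnn4 had 1.41 and 3.99 CPM in mesenchymal-like cells of sham replicates and 9.74 and 16.8 CPM in those of BDL replicates, on 1 to 19 UMIs. Kcnq1 was shared with endothelial-like cells, with 192 and 261.6 CPM under the sham label and 120.6 and 68.6 CPM under the BDL label, on 7 to 38 UMIs. It stood at 27.3 to 38.3 CPM in mesenchymal-like cells. Kcnj15 gave 1 UMI in endothelial-like cells of each of the 4 libraries and 3 UMIs in mesenchymal-like cells of each BDL library. In the 50 macrophage-like cells, Kcnn4, which is also known from immune cells, gave 6, 0, 2 and 3 UMIs, the first of these from only 6 cells in sham replicate 1.

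Cells with a UMI were counted after each cell was thinned at random to 1000 UMIs, since deeper cells show a gene more often. Cells under 1000 UMIs were left out: 85 and 108 BEC-like, 6 and 45 mesenchymal-like and 16 and 64 endothelial-like cells of the sham libraries, and 1 endothelial-like cell of BDL replicate 1. Kcnma1 was found in 54.1% (exact 95% interval 52.1 to 56.0) and 27.6% (25.9 to 29.4) of BEC-like cells with the sham label, against 4.004% (3.18 to 4.97) and 4.04% (3.44 to 4.71) in the BDL libraries. Without thinning the shares were 75.1% and 48.8% against 19.0% and 15.2%. Mesenchymal-like cells, thinned alike, held Kcnma1 in 4.97% and 4.85% of cells in the sham libraries and in 0% and 3.76% in the BDL libraries. Endothelial-like cells, thinned alike, held it in 1 of 24, 0 of 58, 0 of 18 and 1 of 34 cells, at median depths of 1674.5, 1585, 1909.5 and 2987 UMIs. As a level, BDL replicate 1 had Kcnma1 at 49.2 CPM (exact 95% counting interval 45.6 to 52.9) in BEC-like cells against 3.90 CPM (0.47 to 14.1) in mesenchymal-like cells, while in BDL replicate 2 the BEC-like level of 35.8 CPM was below the 51.2 CPM of mesenchymal-like cells.

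Kcnn4 was found in 5.51% and 6.71% of thinned sham cells and in 9.83% and 16.0% of thinned BDL cells. Kcnk1 was found in 9.49% and 9.92% against 4.82% and 5.65%, and Kcnq1 in 24.6% and 18.4% against 15% and 15.3%. For Kcnip4 the shares overlapped between the groups, 21.3% and 15.1% against 18.0% and 14.8%. In mesenchymal-like cells Kcnip4 was found in 0% to 2.16%, Kcnk1 in 0% to 0.81%, Kcnn4 in 0% to 1.504% and Kcnq1 in 1.66% to 3.01% of thinned cells, all below the BEC-like share of the same library. Median depth before thinning was 3366 and 2875 UMIs for the thinned sham BEC-like cells and 7126 and 7873 UMIs for BDL BEC-like cells, and 3320, 2577, 6294 and 7329 UMIs for the thinned mesenchymal-like cells. Without thinning, Kcnip4 (30.2% and 21.7% against 38.5% and 37.2%) and Kcnq1 (49.4% and 39.5% against 54.3% and 59.1%) showed higher shares in the BDL libraries, in the opposite direction to their CPM. The unthinned order of these shares is therefore not read as a change.

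**Figure D3:**
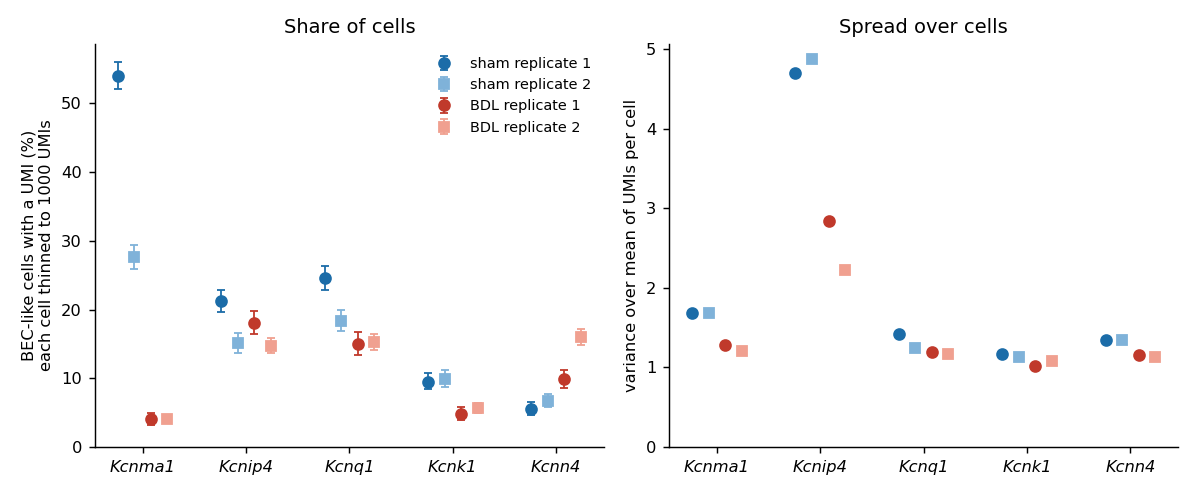
Left, percent of BEC-like cells with a UMI after thinning each cell to 1000 UMIs, with exact 95% intervals for counting error; right, variance over mean of UMIs per thinned cell, 1 point per library. Kcnma1 falls from 54.1% and 27.6% in the sham libraries to 4.004% and 4.04% in the BDL libraries, and Kcnip4 has the highest variance over mean, 4.71 and 4.88 for sham and 2.84 and 2.22 for BDL replicates.

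By the variance over mean of UMIs per cell, Kcnip4 was spread least evenly of the 5 abundant genes. This comparison was added after the values were seen. In thinned BEC-like cells the variance over mean was 4.71 and 4.88 under the sham label and 2.84 and 2.22 under the BDL label, against 1.01 to 1.68 for the other 4 abundant genes. Cells with 10 or more Kcnip4 UMIs of 1000 numbered 16 and 13 in the sham libraries and 1 in each BDL library, while none had 10 of Kcnma1. The 16 cells came from 6 sublibraries and 3 subclusters. Their median doublet score was 0.063, against 0.068 for all BEC-like cells of that library. The caller marked too few doublets to have worked, so these scores cannot decide whether the cells were doublets. Sham and BDL replicates thus overlapped in the share of cells with a Kcnip4 UMI, while very high cells were more numerous in both sham replicates; that difference was not tested.

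**Figure D4:**
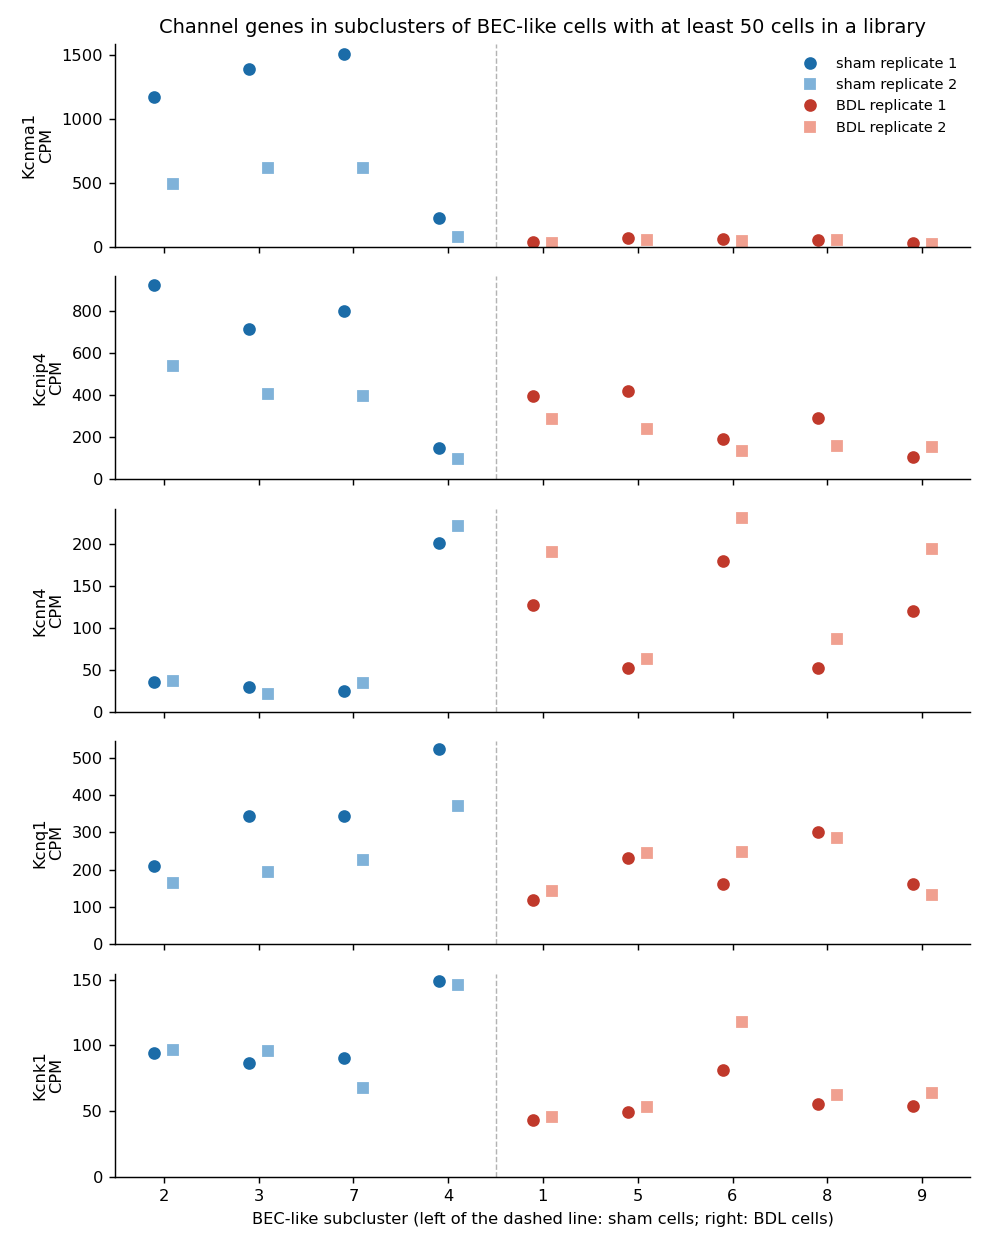
Levels of the 5 abundant genes in subclusters of BEC-like cells with at least 50 cells in a library, in CPM, 1 point per library. Sham subcluster 4 has low Kcnma1 and Kcnip4 but the highest sham levels of Kcnn4, Kcnq1 and Kcnk1.

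Among BEC-like cells the 5 abundant genes did not vary alike. BEC-like cells were clustered again, with all potassium channel family genes left out of the genes used, and levels are given for the 9 subclusters with at least 50 cells in a library, as description with no test. Subclusters 2, 3, 7 and 4 held sham cells, and subclusters 1, 5, 6, 8 and 9 held BDL cells. Subcluster 4 (leading genes Car4, Gm16638 and Sgcd) held 19.2% and 25.3% of the BEC-like cells of the sham libraries. It had Kcnma1 at 222.5 and 77.5 CPM and Kcnip4 at 146.5 and 97.3 CPM, against 495.4 to 1514 CPM and 394.4 to 920.2 CPM in subclusters 2, 3 and 7. Kcnn4 went the other way, at 201.2 and 221.2 CPM in subcluster 4 against 20.9 to 36.9 CPM in the other 3 sham subclusters. Kcnq1 (523.1 and 370.9 CPM) and Kcnk1 (149.2 and 146.3 CPM) were also highest there, and Kcnj16 stood at 3.83 and 3.44 CPM. Among sham cells, Kcnn4 was thus highest where Kcnma1 and Kcnip4 were lowest.

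In the BDL subclusters Kcnma1 ranged from 23.5 to 72.2 CPM, below the lowest sham value of 77.5 CPM in subcluster 4. Kcnn4 varied among them, from 52.5 and 62.8 CPM in subcluster 5 (leading genes Dscaml1, Wnt9a and Ccne1) and 52.4 and 86.8 CPM in subcluster 8 to 179.9 and 230.8 CPM in subcluster 6 (Tnfrsf11b, Anxa1 and Ptprt). Subcluster 1 (Nos2, Csgalnact1 and Csf2), the largest, had 126.7 and 189.9 CPM of Kcnn4 with Kcnq1 at 118.9 and 141.7 CPM. Kcnk1 was highest in subcluster 6, at 81.4 and 118 CPM, and Kcnq1 in subcluster 8, at 299.9 and 284.9 CPM. Kcnip4 was lower in subclusters 6 and 9 (107.3 to 192.5 CPM) than in subclusters 1 and 5 (237.9 to 418.6 CPM).

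Sham and BDL cells hardly shared a subcluster. Subcluster 4 held 10 and 5 cells of the BDL libraries, so a change in which cells were present and a change within cells cannot be told apart. The difference in Kcnma1 between the sham libraries was 2.26-fold to 2.87-fold in the 4 sham subclusters, about as large in each as in all BEC-like cells. A cluster of 30 cells led by Rgs13, Hmx3 and St18 had Kcnq1 at 507.6, 662.6, 352.2 and 656.1 CPM in sham replicates 1 and 2 and BDL replicates 1 and 2, on 5, 4, 5 and 44 UMIs. The last were spread over 9 of 9 cells. This cluster was singled out after its values were seen. It is counted as BEC-like, but its name is doubtful: Spp1 was not among the biliary markers it met, none of the 11 stood among its 10 leading genes (true of every BEC-like cluster), and its median of 1427 UMIs per cell was the lowest of the BEC-like clusters. It also held 5 of the 6 Kcnq3 UMIs of BEC-like cells of sham replicate 1, all in 1 cell.

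Across the 18 points of subcluster and library, which share libraries and depth, Kcnma1 and Kcnip4 went together (Pearson r = 0.75, log2(CPM + 1)) and both ran against Kcnn4 (r = -0.78 and -0.81). Kcnq1 and Kcnk1 went together at 0.59. Kcnq1 was nearly flat against Kcnn4 (-0.13). The genes most like Kcnma1 over these points were Ttr (0.97), which is also on the hepatocyte marker list, Lamc3 (0.96) and Angpt1 (0.96). Those most like Kcnn4 were Sema4b (0.98), Sema3e (0.96) and Tspan8 (0.96). Kcnip4 was nearest to Cblb (0.95), Npas3 (0.89) and Fgg (0.89). Kcnk1 was nearest to Atp1b1 (0.90), Gjb1 and Ugt2b34 (0.90 each), and Kcnq1 to Il17re (0.88), Dop1b (0.83) and Cacna1a (0.82). These are descriptions over 18 points, with no p-value.

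**Figure D5:**
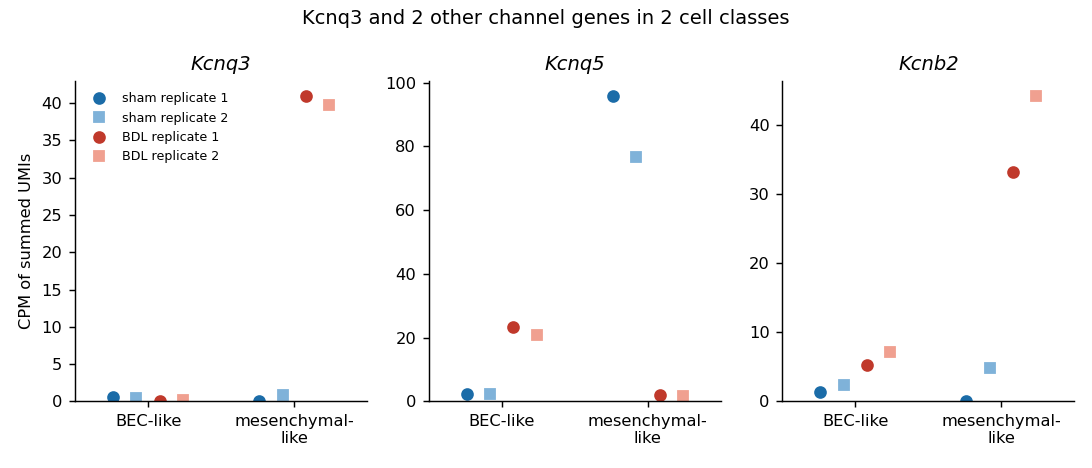
Level of Kcnq3, Kcnq5 and Kcnb2 in BEC-like and mesenchymal-like cells, in CPM, 1 point per library. Kcnq3 reaches 40.9 and 39.7 CPM in mesenchymal-like cells of the BDL libraries, and Kcnq5 stands high in mesenchymal-like cells of the sham libraries and low in those of the BDL libraries.

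Kcnq3 differed most in mesenchymal-like cells, the class named from fibroblast and stellate cell markers such as Col1a1, Pdgfrb and Lrat. It gave 0 and 1 UMI under the sham label and 21 and 45 UMIs under the BDL label, or 0, 0.80, 40.9 and 39.7 CPM. The sum was 78.7 times higher (exact counting interval 13.6 to 3153) in the BDL libraries. In edgeR's test 542 of 8796 genes (6.16%) were called in this class, 2.34% higher and 3.82% lower. Kcnq3 passed the filter on low counts only through the BDL libraries, where it is high, so its fitted log2 fold change of 5.91 (SE 0.70), which depends on the prior count, is a description. The count of 542 was 1284 without BDL replicate 1. All Kcnq3 UMIs of the BDL libraries lay in 1 cluster, led by Mmp3, Fbn2 and Serpina3n, for which Kcnq3 is itself a leading gene. That cluster held 59.2% and 76.7% of the class in the BDL libraries and 1 cell in each sham library. Make-up and change within cells therefore cannot be told apart here. Markers of other cell types moved with the label in this class: the 6 Schwann or neural markers summed to 156.4 and 136.4 CPM in the sham libraries and 329.1 and 607.6 CPM in the BDL libraries, with Sox10 at 0 and 2 of the 6 at 5 CPM or more. The 5 mesothelial markers summed to 100.1 and 196.2 against 19.5 and 60.9 CPM. The 7 smooth muscle markers summed to 387.5 and 396.5 against 617.3 and 648.2 CPM. The 5 plasma cell markers summed to 97.2 and 72.6 against 151.9 and 212.5 CPM, and the 7 T cell markers to 47.9 and 45.5 against 5.84 and 4.41 CPM. Their part in the mesenchymal-like differences here and below was not tested.

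Kcnma1 in mesenchymal-like cells had 153.6 and 86.2 CPM under the sham label and 3.90 and 51.2 CPM under the BDL label. BDL replicate 1 rests on 2 UMIs, and the log2 fold change was -1.93 (SE 0.60). With 1 library left out it ran from -4.87 without BDL replicate 2 to -1.28 without BDL replicate 1. In sham replicate 1, 94 of the 109 Kcnma1 UMIs lay in a cluster led by Gm39377, Tnmd and Emx2, which held 17 cells of that library, at 711.5 CPM. The same cluster stood at 76.7 CPM in sham replicate 2 (11 UMIs, 14 cells) and at 306.5 CPM in BDL replicate 2 (12 UMIs, 6 cells). Kcnq1 in mesenchymal-like cells (29.6 and 38.3 against 31.2 and 27.3 CPM) had a log2 fold change of -0.31 (SE 0.36).

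The difference between the 2 classes was tested with edgeR's interaction of class and label, with the library as a block. It called 758 of 15311 genes (4.95%, with 2.79% higher and 2.16% lower), and 389 without BDL replicate 2. In simulated sums it recovered 39% of differences of 2 on the log2 scale and 0% of differences of 1, so a missed call says little. For the 8 genes its values are given as description. As BEC-like minus mesenchymal-like, the value was -2.10 (SE 0.58) for Kcnma1, and 1.15 without BDL replicate 2, so its direction rests on that library. It was -8.04 (SE 1.44) for Kcnq3, which entered only through mesenchymal-like cells of the BDL libraries and whose size depends on the prior count.

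The other potassium channel genes were taken by symbol, 85 in all, of which 78 had a UMI in BEC-like cells and 39 were tested. In all 5 were called higher and 8 lower, and 26 were not called, beside 14.2% higher and 12.9% lower over all genes tested, with a median log2 fold change of -0.59 against -0.03 over all genes tested. Without sham replicate 1 the counts were 3 higher and 4 lower, without sham replicate 2 the count lower was 5, and without BDL replicate 1 it was 20. Kcnq5, a voltage-gated relative of Kcnq3, rose from 2.46 and 2.25 CPM to 23.4 and 20.9 CPM (3.25 on the log2 scale, SE 0.20, edgeR adjusted p = 0.00035). Kcnh8, a voltage-gated channel of the ether-a-go-go family, rose from 6.45 and 6.76 CPM to 20.3 and 30.5 CPM (1.97, SE 0.25, edgeR adjusted p = 0.0026).

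Among genes averaging at least 5 CPM, the largest fall was that of Kcne3, the epithelial partner of Kcnq1, from 40.3 and 49.96 CPM to 16.5 and 14.1 CPM (-1.55, SE 0.19, edgeR adjusted p = 0.0025). Kcnab1, a beta subunit of voltage-gated channels, fell from 52.3 and 35.1 CPM to 14.7 and 16.1 CPM (-1.47, SE 0.18, edgeR adjusted p = 0.0022). Kcnk5, an acid-sensing two-pore channel, fell from 98.3 and 92.3 CPM to 36.5 and 32.2 CPM (-1.45, SE 0.12, edgeR adjusted p = 0.00068). Kcnh7, a channel of the ether-a-go-go family, fell by 1.15 on the log2 scale (edgeR adjusted p = 0.0027), and Kcng3, a modifier subunit, fell by 0.87 (edgeR adjusted p = 0.026). Kcng3 lost its call under 3 alternatives, DESeq2 and each sham library left out. Outside the rule for named genes, Kcnb2 (1.78) and Kcnj11 (1.28) also rose, and Kcnn2 (-2.16) and Kcnn3 (-1.79) also fell. Kcnn2 and Kcnn3, small-conductance relatives of Kcnn4, stood below 5 CPM in every library. In all 13 called genes both BDL libraries lay on 1 side of both sham libraries. A call favours such genes and the share over all called genes was not counted, so nothing is read from this.

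In mesenchymal-like cells 13 of the other 85 genes were tested, and edgeR called 1 higher and 2 lower, beside 2.34% higher and 3.82% lower over all genes tested. With sham replicate 1 or BDL replicate 1 left out, 2 were called higher. Kcnb2 and Kcnq5 passed the filter on low counts only through the libraries where they are high, so their differences in this class are descriptions with no p. Kcnb2, a delayed rectifier, had 0 and 4.79 CPM under the sham label and 33.1 and 44.1 CPM under the BDL label. Its fitted log2 fold change of 3.601 (SE 0.66) depends on the prior count, ranging from 2.91 if sham replicate 1 is left out to 7.96 if sham replicate 2 is, where the sham library that remains is at 0. Kcnq5 had 95.8 and 76.6 CPM under the sham label against 1.95 and 1.76 CPM under the BDL label, 164 UMIs against 3. The sham sum was 45.9 times higher (exact counting interval 15.4 to 224.7). Kcnj8, the pore of the ATP-sensitive potassium channel of pericytes, fell from 76.1 and 74.2 CPM to 27.3 and 15.9 CPM (-1.94, SE 0.35, edgeR adjusted p = 0.015). Mesenchymal-like cells of the 2 labels lay largely in different clusters, so make-up and change within cells cannot be told apart for these genes either. Of the Kcnb2 UMIs in the BDL libraries, 16 and 50 lay in the cluster led by Mmp3, which held 1 cell of each sham library, and the largest cluster, led by Colec10, Hhip and Bmp10, gave 0, 4, 1 and 0 Kcnb2 UMIs. In that largest cluster Kcnj8 stood at 142.8 and 109.9 CPM in sham replicates against 74.7 CPM (exact 95% counting interval 37.3 to 133.6) and 97.5 CPM (53.3 to 163.6) in BDL replicates, a smaller difference than in the whole class. Kcnq5 was higher in BEC-like and lower in mesenchymal-like cells of the BDL libraries. The fitted class difference of 8.80 rests in part on those 3 UMIs and is a description with no p. In the largest cluster Kcnq5 gave 66, 92, 0 and 2 UMIs in sham replicates 1 and 2 and BDL replicates 1 and 2. There 27 and 22 cells of the BDL libraries were compared with 106 and 315 cells of the sham libraries, at 196.4 and 111.2 CPM against upper 95% limits of 25.1 and 50.3 CPM. These cluster values were looked up after the class values had been seen.

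Potassium channels work beside chloride, sodium and calcium routes. Of 20 such genes 18 were tested in BEC-like cells, 4 rose, 5 fell and 9 were not called, beside 14.2% higher and 12.9% lower over all genes tested, with a median log2 fold change of 0.17. Without sham replicate 1 the counts were 2 and 2, without sham replicate 2 the count lower was 1, and without BDL replicate 1 the count higher was 9. Slc12a2, the basolateral entry for chloride with sodium and potassium, rose from 207.6 and 182.8 CPM to 697.9 and 823.7 CPM (1.99, SE 0.13, edgeR adjusted p = 0.00037). Trpv4, a calcium entry channel, rose from 16.9 and 16.7 CPM to 34.6 and 51.3 CPM (1.38, SE 0.21, edgeR adjusted p = 0.0053). Cftr, the apical chloride channel opened by cyclic AMP, rose from 284.3 and 167.6 CPM to 520.1 and 490.1 CPM (1.20, SE 0.20, edgeR adjusted p = 0.0072). The call of Trpv4 was lost without sham replicate 1 (1.32).

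Of the 3 receptors on the list that release stored calcium, 2 fell and Itpr3, at 76.4 and 84.1 against 83.5 and 135.2 CPM, was not called. Itpr1 fell from 270.7 and 209.6 CPM to 109.5 and 85.2 CPM (-1.28, SE 0.16, edgeR adjusted p = 0.0025). Itpr2 fell by 0.60 (edgeR adjusted p = 0.0088) on the log2 scale, and it lost its call without either sham library. Atp1b1, a beta subunit of the sodium pump, fell by 0.60, and Slc4a4, a sodium and bicarbonate carrier, rose by 0.66. The call of Atp1b1 was lost without sham replicate 2 and that of Slc4a4 without sham replicate 1. Ano1, the calcium-gated chloride channel, stood at 157.1 and 185.7 against 181.5 and 267.8 CPM and was not called. In mesenchymal-like cells 14 were tested. Piezo1, a stretch-gated channel, rose from 95.8 and 93.3 CPM to 212.3 and 366.9 CPM (1.57, edgeR adjusted p = 0.015). Ano1 fell from 171.9 and 317.5 CPM to 58.4 and 59.1 CPM (-2.13, edgeR adjusted p = 0.011). With sham replicate 1, BDL replicate 1 or BDL replicate 2 left out, 2 fell.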

How the data were processed

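Single cells of 4 libraries, 2 labelled sham and 2 labelled BDL, were profiled with Evercode Whole Transcriptome chemistry (split-pool barcoding of fixed cells, random hexamer and oligo(dT) primers), per the labels' protocols. The deposited matrices hold whole-number UMI counts per cell and gene, and the deposited cell tables hold other values per cell, such as read counts, sublibrary and a group name. The reference is named mm39refseq in the deposited tables, and the submitters' processing notes name GRCm39. The counting software, its use of strand and of introns, and the treatment of doublets are not given in the sources used here. No gene coordinates on GRCm39 are given, since the annotation at hand is of another build. Promoter windows come from RefSeq, GRCm38.p6.

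The 8 genes, gene lists and tests were chosen with earlier results of these data known. Cells with under 500 UMIs (7) or over 20% mitochondrial UMIs (10) were left out of 12211. Scrublet marked 14 doublets (0.115%), too few for the caller to have worked, and these were removed. Cells were clustered (2000 variable genes, 30 principal components, 20 neighbours, Leiden resolution 1; scanpy 1.11.5, leidenalg 0.10.2, scikit-learn 1.9.0) and named from markers: at least 3 in at least 5% of cells and over 2-fold above other cells. A non-biliary name also needed 50% of its list, a limit set after the clusters were seen. Without it, some clusters of mostly sham biliary cells took the hepatocyte name. Macrophage-like cells also met 4 B-cell markers. BEC-like cells of sham libraries lay in other clusters (1, 4, 5 and 8) than those of BDL libraries. Replicates differed beyond sampling noise (chi-square per degree of freedom 25.6 for sham and 37.9 for BDL).

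UMIs were summed per library and class and tested with edgeR 4.0.16 (R 4.3.3): TMM scaling, filterByExpr, two-sided quasi-likelihood test, Benjamini-Hochberg adjustment over all genes tested, threshold 0.05. The sums of BEC-like cells held 8426515 to 32177616 UMIs and those of mesenchymal-like cells 513495 to 1253551. Biological coefficients of variation were 0.166 and 0.212. On simulated data the BEC-like fit recovered 70% of genes changed by 1 and 99% of those changed by 2 on the log2 scale, with 9 false calls among 15911 genes. The mesenchymal-like fit recovered 18% and 92%, with 1 false call. Intervals of shares are exact Clopper-Pearson, those of CPM exact Poisson, at 95%, and cover counting error only. Each SE is the log2 fold change over the root of its F. CPM are not scaled by TMM.

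Named beside the 8 genes were, from the other potassium channel genes (symbols beginning with Kcn), up to 5 rises and 5 falls in BEC-like cells and 2 and 2 in mesenchymal-like cells. They had the largest changes among genes that were called, averaged 5 CPM or more, and had BDL and sham libraries apart. From the secretion list up to 3 per direction with the smallest adjusted p were named. Some genes of these lists that met the rules are counted but not reported here by name. Genes of like pattern needed a mean of at least 20 CPM. Alternatives were other size factors, DESeq2 1.42.0, other filters, resolutions and depths, single sublibraries and leaving out each library.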

Additional observations from a re-analysis of the deposited data

Results flagged for a closer look

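For Slc12a2, Ano1 and Piezo1, the log2 fold change of BDL against sham differed between BEC-like and mesenchymal-like cells by edgeR's interaction test with the library as a block. That test called 3 of 19 secretion genes, beside 4.95% of all genes. The differences below are BEC-like minus mesenchymal-like, with edgeR adjusted p for Slc12a2, Ano1 and Piezo1 only.

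The fitted difference was 8.80 for Kcnq5, which was higher in BEC-like and lower in mesenchymal-like cells of the BDL libraries. It is a description with no p, since its mesenchymal-like part rests on 164 sham UMIs against 3 BDL UMIs. For Kcnq3 and Kcnma1, which were chosen with their values known, the fitted difference is a description with no p: -8.04 for Kcnq3, which has 1 sham UMI in mesenchymal-like cells, and -2.10 for Kcnma1, or 1.15 without BDL replicate 2.

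Among secretion genes the difference was 2.18 for Slc12a2 (adjusted p = 0.00012), at 218.4 and 151.6 against 148 and 179 CPM in mesenchymal-like cells. It was 2.48 for Ano1 (adjusted p = 0.00013) and -1.34 for Piezo1 (adjusted p = 0.0072). These class differences and that of Kcnq5 were not rerun with 1 library left out.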

How the results depend on the processing

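No paired analysis was possible because sham and BDL libraries share no replicate number in the labels: each library has a number of its own, and replicates 1 and 2 are names only. Where leaving out 1 library left another alone in its group, the lone one was taken to vary like the other 2. Removing the 5% of cells with the highest doublet scores was added after the data were seen for results other than the folds of the 8 genes in BEC-like cells.

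Genes called in BEC-like cells numbered 4350, and 1405 to 6587 with 1 library left out. DESeq2 called 3578, 3408 of them shared in direction. With no filter on low counts 62.6% of calls were higher in place of 52.4% and 8 secretion genes were called higher. With genes of at least 10 CPM in 2 libraries, 3 family genes were higher and 4 lower of 9 tested. With 1 library left out, family genes called higher were 3 to 5 and lower 4 to 20, and secretion genes higher 2 to 9 and lower 1 to 5. Mesenchymal-like calls were 351 with DESeq2, 1087 with no filter and 596 to 1284 with 1 library left out, against 542. Interaction calls were 389 to 892. The causes were not tested.

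Directions reversed for Kcnj16 in BEC-like cells (-0.213 to 0.671 with 1 library left out, -0.273 as a mean of CPM per cell). With 1 library left out the class difference ran from -2.227 to 1.76 for Kcnip4 and from -0.585 to 1.665 for Kcnk1, both lowest without sham replicate 2. For Kcnma1 it ran from -3.004 to 1.15, the last without BDL replicate 2. As log2 ratios of shares of cells, BDL over sham, no thinning gave -1.86 for Kcnma1, 1.66 for Kcnn4, and reversed Kcnip4 (0.55), Kcnq1 (0.35) and Kcnk1 (0.24). At 2000 UMIs Kcnip4 was 0.021.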
